A study of Homo sapiens with 9 samples.

Results

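The 33 genes described here encode heat shock factors, chaperones and their partners (21 genes) and subunits of the proteasome (12 genes), listed by symbol and followed across 9 RNA-seq libraries of MDA-MB-231 cells, a human triple-negative breast cancer line. All 33 were among the 26364 genes listed in the counts, and 32 were among the 13704 genes with enough counts to be tested. The control line (shNT) expresses a non-targeting shRNA, and the shGLO1#1 and shGLO1#2 lines each stably express an shRNA that silences GLO1, the enzyme that detoxifies methylglyoxal (MG), a reactive by-product of glycolysis. Each condition was a single clone sequenced as 3 replicates, untreated apart from the shRNA, so the p-values below measure the spread between libraries of a clone and not between clones, and both GLO1-depleted clones are set against the same shNT libraries. The comparison asks whether cells that accumulate MG, which glycates arginine and lysine side chains of proteins, carry more mRNA of the protein quality control machinery.

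Chaperones bind exposed hydrophobic stretches of unfolded proteins and help them fold. HSP70 proteins work with HSP40 partners, which bring the client and trigger ATP hydrolysis, and with HSP110 proteins, which exchange the nucleotide; HSP90 finishes the folding of kinases and receptors. When damaged proteins accumulate, heat shock factor 1 (HSF1) is freed from chaperones, forms trimers and binds inverted GAA repeats called heat shock elements in the promoters of chaperone genes. HSF1 itself is mainly controlled through its protein. Proteins beyond repair are tagged with ubiquitin and broken down by the proteasome, a 20S barrel of alpha and beta subunits capped by the 19S particle, which binds, unfolds and deubiquitinates the client.

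The libraries held 15314238 to 18495576 counts on genes. Levels are given as CPM, the counts of a gene per unit of library size after scaling by the trimmed mean of M-values (TMM). GLO1 mRNA stood at 323, 312 and 317 CPM in the shNT libraries, at 64.2, 65.9 and 65.9 CPM in those of shGLO1#1 and at 14.6, 15.5 and 14.0 CPM in those of shGLO1#2, so every library matched its label. The markers of the line were present (VIM at 3330, 3158 and 4144 CPM on average in shNT, shGLO1#1 and shGLO1#2). The luminal receptor ESR1 had at most 7 counts in any library and the T cell gene CD3E at most 1. Of 5 luminal markers listed, however, 3 had enough counts to be tested, 1 of them lower in shGLO1#2. Of 5 leukocyte markers 2 did, PTPRC and a gene higher in both clones (log2 fold change 0.30 and 0.29, adjusted p under 0.05, edgeR). The leukocyte gene PTPRC averaged 8.37 ± 1.83 CPM in shNT, against 1.21 ± 0.486 in shGLO1#1 and 2.57 ± 0.570 in shGLO1#2 (SD of 3 libraries); its part in the results below was not tested. In these bulk libraries a smaller number of cells with a transcript and less of it per cell cannot be told apart.

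Most of the machinery was not higher in either clone, and in shGLO1#1 a large part of it was lower. In shGLO1#1, 11 of 20 chaperone genes and 10 of 12 proteasome genes were lower than in shNT at an adjusted p under 0.05 in edgeR's quasi-likelihood test, where 23.1% of all genes tested were lower. None was higher, against 22.6% of all genes; the count of members higher was also 0 at an unadjusted p under 0.05 and 0 by DESeq2. In shGLO1#2 the proteasome genes were close to shNT, with 0 higher and 2 lower, and the chaperone genes split into 4 higher and 8 lower (all genes tested: 18.3% higher and 19.8% lower). For the 12 proteasome genes in shGLO1#2, 1 gene was higher at an unadjusted p under 0.05 and 0 by DESeq2. With the replicate number, whose meaning the sources do not state, as a block, 6 chaperone genes and 1 proteasome gene were higher in shGLO1#2. The block also raised the higher calls over all 13704 genes in shGLO1#2, from 2510 to 3124. Single libraries moved some of these counts. The 10 proteasome genes lower in shGLO1#1 became 6 without shGLO1#1 replicate 1, the 4 chaperone genes higher in shGLO1#2 became 2 without shNT replicate 3 or shGLO1#2 replicate 2, and the 8 lower became 5 without shNT replicate 2. The 2 proteasome genes lower in shGLO1#2 became 1 without any one library of shNT or shGLO1#2, or without shGLO1#1 replicate 2.

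The median log2 fold change against shNT was -0.30 for the chaperone genes and -0.21 for the proteasome genes in shGLO1#1, and -0.01 and -0.06 in shGLO1#2, where the medians of all genes tested lay at 0.0013 and 0.0012. Most members are abundantly expressed. Among the 2147 genes with a mean level between 89.1 and 279 CPM, where the middle of the members lay, 38.5% were lower in shGLO1#1 and 26.6% in shGLO1#2. The shares higher in that range were 17.7% in shGLO1#1 and 16.3% in shGLO1#2. Upper-quartile scaling moved the share of higher among all called genes in shGLO1#2 from 48.1 to 58.3%. Summed over the members, chaperone mRNA came to 11641 ± 674 CPM in shNT, against 9579 ± 427 in shGLO1#1 and 11609 ± 1066 in shGLO1#2 (SD of 3 libraries). Proteasome mRNA was 2183 ± 44.8, 1849 ± 58.9 and 2121 ± 89.2 CPM. Every shGLO1#1 library lay below every shNT library in both sums, and the ranges of shGLO1#2 and shNT overlapped.

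**Figure D1:**
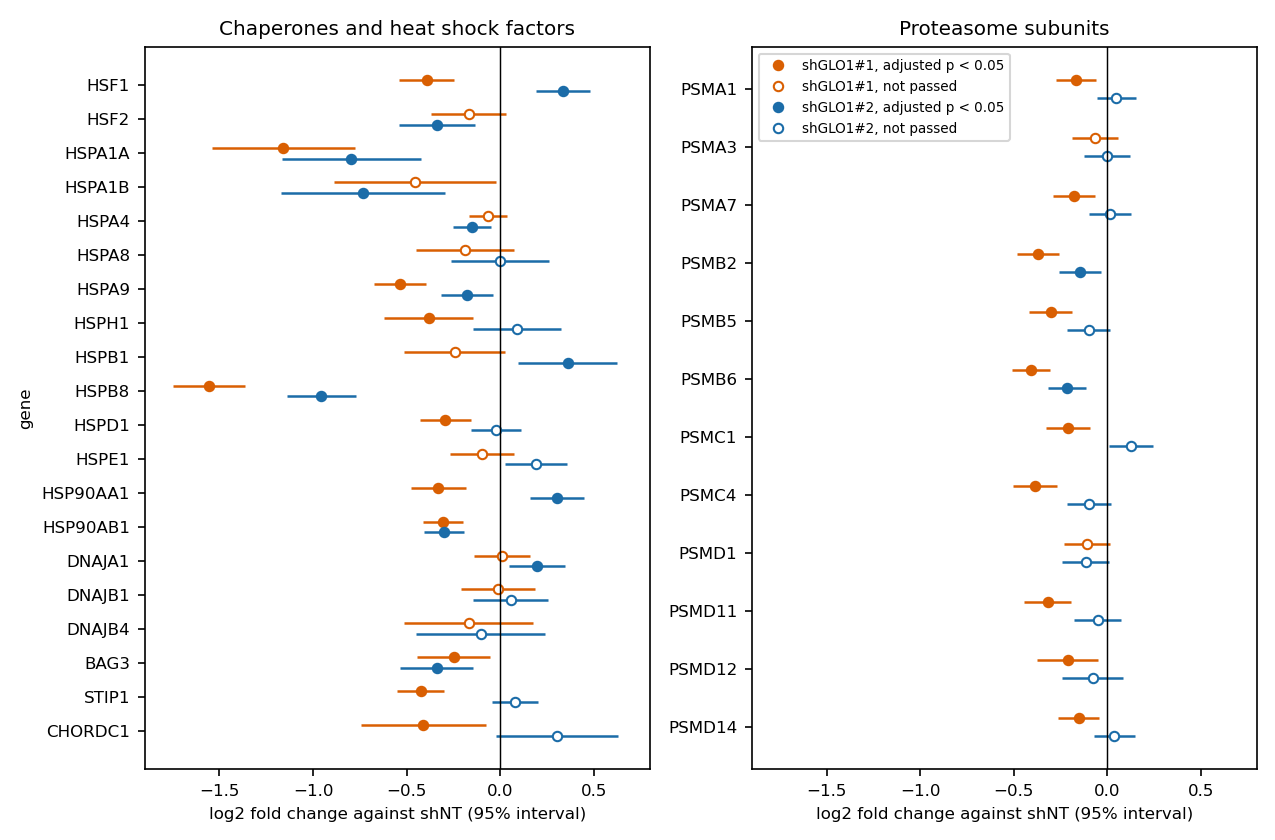
Log2 fold change against shNT (x axis) of the 32 genes tested (y axis) in shGLO1#1 (orange) and shGLO1#2 (blue), with unadjusted 95% intervals as lines; filled points passed an adjusted p of 0.05 and open points did not. HSPB8 lies farthest to the left in both clones, at -1.55 and -0.95, and no filled orange point lies right of 0.

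Set directly against shGLO1#1, the shGLO1#2 clone had more mRNA of 11 of 20 chaperone genes and 9 of 12 proteasome genes (22.8% of all genes tested and 33.3% of the 2147 genes between 89.1 and 279 CPM were higher), and less of 0 of either list (23.7% of all genes were lower; 0 members at an unadjusted p under 0.05 and 0 by DESeq2). The chaperone genes that differed were HSF1, HSPA9, HSPH1, HSPB1, HSPB8, HSPD1, HSPE1, HSP90AA1, DNAJA1, STIP1 and CHORDC1. The clones thus differed from each other over much of the list. Both lack most GLO1 mRNA and shGLO1#2 has the less of it, but the part of GLO1 in the difference was not tested. With 1 clone for each shRNA, shRNA and clone cannot be told apart.

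HSF1, the main activator of the heat shock response, moved in opposite directions in the clones. Its mRNA stood at 93.3, 91.6 and 85.8 CPM in shNT, against 63.1, 72.2 and 70.5 CPM in shGLO1#1 and 122, 108 and 111 CPM in shGLO1#2. The 3 conditions did not overlap. The log2 fold change stood at -0.39 in shGLO1#1 (SE 0.07, adjusted p = 0.000399, edgeR) and 0.34 in shGLO1#2 (SE 0.07, adjusted p = 0.00135, edgeR), and it was 0.73 between the clones (adjusted p = 1.84e-06, edgeR). HSF1 overlaps DGAT1 on the opposite strand, and the library kit does not mark the strand. HSF2, a second heat shock factor that can form mixed trimers with HSF1, fell in shGLO1#2 (log2 fold change -0.34, adjusted p = 0.0112, edgeR), from 35.9, 31.8 and 33.9 CPM in shNT to 22.8, 27.8 and 29.7 CPM. In shGLO1#1 it was at 29.6, 30.3 and 30.7 CPM, with a log2 fold change of -0.17 (95% interval -0.37 to 0.03).

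The stress-inducible HSP70 genes HSPA1A and HSPA1B are usually the steepest risers in a heat shock; HSPA1A fell in both clones and HSPA1B in shGLO1#2. HSPA1A was at 12.5, 11.9 and 8.64 CPM in shNT, against 5.55, 4.84 and 4.33 CPM in shGLO1#1 and 6.94, 6.98 and 4.96 CPM in shGLO1#2. All shGLO1 libraries lay below all shNT libraries. It fell by 1.16 on the log2 scale in shGLO1#1 (SE 0.18, adjusted p = 0.000139, edgeR) and by 0.80 in shGLO1#2 (SE 0.17, adjusted p = 0.00237, edgeR). HSPA1B was at 96.6, 101 and 61.1 CPM in shNT, against 68.9, 70.9 and 48.6 CPM in shGLO1#1 and 61.3, 57.4 and 36.7 CPM in shGLO1#2. Here the conditions overlapped, because the replicate 3 library was low in each of them. HSPA1B fell in shGLO1#2 (log2 fold change -0.73, adjusted p = 0.0115, edgeR), a call lost without shNT replicate 2 (adjusted p = 0.0542, edgeR), and stood at -0.46 in shGLO1#1 (adjusted p = 0.0802, edgeR), where 6 of 17 alternatives did call it (over all 17, adjusted p from 3.37e-06 with the replicate block to 0.267, edgeR).

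HSPA1A and HSPA1B encode almost the same protein from neighbouring copies on chromosome 6. Their RefSeq promoters (GRCh38.p14) were 93.6% identical over 251 aligned columns. The stretches below are shown because they carry the same incomplete heat shock element in both copies (capitals, GAANNTTC), beginning 106 bases before the start of HSPA1A (chr6:31815393-31815462, plus strand) and 105 bases before that of HSPA1B (chr6:31827588-31827657, plus strand).
HSPA1A: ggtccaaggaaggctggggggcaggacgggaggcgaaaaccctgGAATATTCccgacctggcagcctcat
HSPA1B: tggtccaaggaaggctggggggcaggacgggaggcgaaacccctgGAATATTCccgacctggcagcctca
Reads that fit both copies equally are not unique and were not counted for a gene by the authors' counter, so the levels of both genes are uncertain.

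The constitutive HSP70 gene HSPA8, which serves folding in unstressed cells, had 2549, 2922 and 2225 CPM in shNT, against 2394, 2415 and 1944 CPM in shGLO1#1 and 2538, 3023 and 2136 CPM in shGLO1#2. The conditions overlapped, and its log2 fold change stood at -0.19 in shGLO1#1 (95% interval -0.45 to 0.07) and 0.00 in shGLO1#2 (95% interval -0.26 to 0.26). With the replicate number as a block, 1 of 17 alternatives, HSPA8 was called lower in shGLO1#1 (adjusted p = 0.00391, edgeR). Of the HSP110 genes, which recharge HSP70, HSPH1 fell in shGLO1#1 by 0.38 on the log2 scale (adjusted p = 0.0119, edgeR), from 295, 323 and 254 CPM to 248, 229 and 192 CPM; leaving out shNT replicate 2 or shGLO1#1 replicate 3 ended the call, with adjusted p up to 0.061 over the alternatives. HSPA4 was at 302, 318 and 307 CPM in shNT, against 294, 295 and 297 CPM in shGLO1#1 (log2 fold change -0.07, 95% interval -0.17 to 0.04) and 270.5, 288 and 278 CPM in shGLO1#2. It fell in shGLO1#2 by 0.15 (adjusted p = 0.0237, edgeR), a call that 7 of 17 alternatives ended (adjusted p 0.00816 to 0.118).

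The 2 cytosolic HSP90 genes fell together in shGLO1#1 and parted in shGLO1#2. HSP90AA1, the more heat-inducible form, was at 2476, 2730 and 2500 CPM in shNT, against 2075, 2106 and 1952 CPM in shGLO1#1 and 3019, 3531 and 2962 CPM in shGLO1#2. The 3 conditions did not overlap, with shGLO1#1 lowest and shGLO1#2 highest. The log2 fold change stood at -0.33 in shGLO1#1 (adjusted p = 0.00137, edgeR) and 0.30 in shGLO1#2 (adjusted p = 0.00286, edgeR). HSP90AB1, the more constitutive form, was at 3038, 3109 and 3023 CPM in shNT, against 2413, 2514 and 2490 CPM in shGLO1#1 and 2395, 2629 and 2416 CPM in shGLO1#2. It was lower in both clones by nearly the same amount, with log2 fold changes of -0.31 (adjusted p = 0.0002, edgeR) and -0.30 (adjusted p = 0.000276, edgeR).

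Within a library, HSP90AA1 had 0.815, 0.878 and 0.827 counts per HSP90AB1 count in shNT, 0.860, 0.838 and 0.784 in shGLO1#1, and 1.26, 1.34 and 1.23 in shGLO1#2. The ratio does not depend on the scaling of the libraries, and it lay above 1 in the shGLO1#2 libraries alone. It was chosen after the values of both genes were seen and carries no test. HSP90AA1 overlaps WDR20 on the opposite strand, and how many of its reads that touches was not tested.

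**Figure D2:**
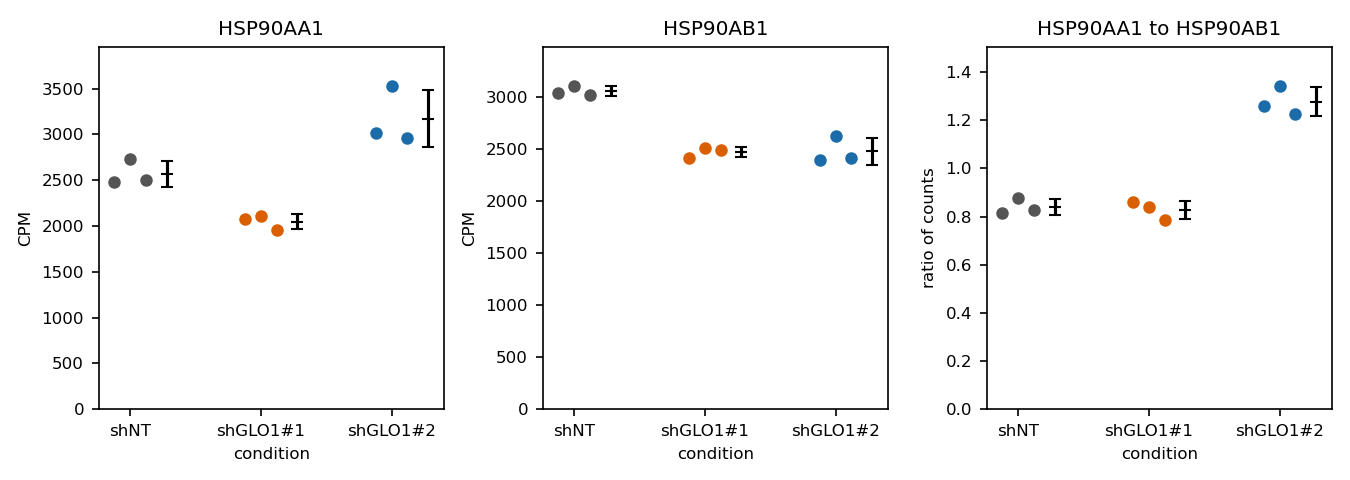
CPM of HSP90AA1 (left) and HSP90AB1 (middle) and the ratio of their counts (right) by condition, 1 point a library, with the mean and SD of 3 libraries beside the points. HSP90AB1 is lower in both clones, and the ratio averages 0.840 in shNT, 0.827 in shGLO1#1 and 1.28 in shGLO1#2.

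Per kilobase of the longest principal transcript in GENCODE version 29, which allows genes to be compared, HSP90AB1 (1143 ± 17.3 CPM per kb), HSPA8 (1041 ± 142) and HSP90AA1 (760 ± 41.5) were the most abundant members in shNT (SD, n = 3). HSP90AB1 and HSPA8 overlapped within their SD. HSPD1 (287 ± 8.94) and PSMA7 (268 ± 3.50) followed, and the lowest genes tested were DNAJB4 (7.22 ± 0.897) and HSPA1A (4.43 ± 0.834). The lengths come from an annotation that may differ from the one the authors counted on.

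The HSP40 genes, whose proteins deliver clients to HSP70, gave 0 calls of 3 in shGLO1#1 and 1 of 3 in shGLO1#2. Across the 13704 genes, upward calls made up 22.6% and downward calls 23.1% in shGLO1#1. In shGLO1#2 they made up 18.3% and 19.8%. A list of 3 genes is too short to be set apart from such shares. DNAJA1 was at 321, 349 and 312 CPM in shNT, against 345, 339 and 303 CPM in shGLO1#1 and 365, 408 and 352 CPM in shGLO1#2. It rose in shGLO1#2 (log2 fold change 0.20, adjusted p = 0.0379, edgeR), a call that ended without shNT replicate 1, shNT replicate 3, shGLO1#1 replicate 2 or shGLO1#2 replicate 2 (adjusted p up to 0.143). DNAJB1, a classic HSF1 target, showed a log2 fold change of -0.01 in shGLO1#1 (95% interval -0.21 to 0.19) and 0.06 in shGLO1#2 (95% interval -0.14 to 0.26). DNAJB4 was at -0.17 and -0.10, with wider intervals (-0.51 to 0.18 and -0.45 to 0.24).

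The small heat shock proteins hold unfolding proteins in oligomers without ATP. HSPB8, which works with BAG3 to send clients to autophagy, showed the largest difference of all members. It was at 44.6, 40.3 and 36.7 CPM in shNT, against 13.8, 14.3 and 13.3 CPM in shGLO1#1 and 21.8, 20.3 and 20.6 CPM in shGLO1#2. The 3 conditions did not overlap. HSPB8 fell by 65.9% in shGLO1#1 (log2 fold change -1.55, SE 0.09, adjusted p = 3.53e-08, edgeR) and by 48.4% in shGLO1#2 (log2 fold change -0.95, SE 0.09, adjusted p = 1.82e-06, edgeR). HSPB8 and HSPA1A, both in shGLO1#1, were the only member results to pass an absolute log2 fold change of 1 as well; 2.75% of all genes tested passed both limits on the lower side there and 5.98% on the higher side. In shGLO1#2 these limits were passed by 0 members (5.09% of all genes higher and 2.59% lower), and between the clones likewise by 0 (3.33% higher and 3.75% lower).

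HSPB1, which also protects actin filaments, went the other way in shGLO1#2. It was at 89.5, 88.2 and 63.2 CPM in shNT, against 72.1, 70.7 and 60.3 CPM in shGLO1#1 and 116, 103 and 89.98 CPM in shGLO1#2. It rose in shGLO1#2 (log2 fold change 0.36, adjusted p = 0.0326, edgeR), and its ranges were apart there by a narrow margin. Without shNT replicate 3 the log2 fold change was 0.22 (adjusted p = 0.115, edgeR), and the call also ended without shGLO1#2 replicate 1 or 2. In shGLO1#1 HSPB1 was at -0.24 (adjusted p = 0.129, edgeR). There 3 of 17 alternatives called it lower, the replicate block among them (over all 17, adjusted p from 0.00304 to 0.371). CRYAB had 1 count in shNT replicate 1 and 0 in the other 8 libraries, below a floor of 3 counts, and was not tested.

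BAG3, the cochaperone that joins HSP70 to HSPB8, was at 202, 175 and 169 CPM in shNT, against 154, 154 and 151 CPM in shGLO1#1 and 168, 126 and 137 CPM in shGLO1#2. All shGLO1 libraries lay below the lowest shNT library. It fell in shGLO1#1 (log2 fold change -0.25, adjusted p = 0.0392, edgeR), where 7 of 17 alternatives ended the call (adjusted p up to 0.168), and in shGLO1#2 (log2 fold change -0.34, adjusted p = 0.00942, edgeR), where leaving out shGLO1#2 replicate 2 did (adjusted p = 0.0554, edgeR).

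STIP1, which bridges HSP70 and HSP90, fell in shGLO1#1 from 373, 384 and 348 CPM to 280, 284 and 260 CPM (log2 fold change -0.42, adjusted p = 5.40e-05, edgeR), and was at 385, 412 and 371 CPM in shGLO1#2 (log2 fold change 0.08, 95% interval -0.05 to 0.20). CHORDC1, an HSP90 cochaperone, was at 68.2, 79.7 and 58.2 CPM in shNT, against 61.2, 53.5 and 40.2 CPM in shGLO1#1 and 83.3, 101 and 69.998 CPM in shGLO1#2. Replicates varied widely within each condition. CHORDC1 fell in shGLO1#1 (log2 fold change -0.41, adjusted p = 0.0439, edgeR), a call that 7 of 17 alternatives ended, DESeq2 among them (adjusted p up to 0.183). In shGLO1#2 it was at 0.30 (adjusted p = 0.134, edgeR), and with the replicate number as a block it was at 0.30 with an adjusted p of 0.00251 (edgeR).

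The mitochondrial chaperones receive imported proteins. HSPA9, the import motor HSP70, was at 587, 627 and 632 CPM in shNT, against 414, 412 and 448 CPM in shGLO1#1 and 490, 573 and 570 CPM in shGLO1#2. Both clones lay below shNT, shGLO1#1 the farther. HSPA9 fell by 0.54 on the log2 scale in shGLO1#1 (adjusted p = 1.79e-05, edgeR) and by 0.18 in shGLO1#2 (adjusted p = 0.0432, edgeR), the latter lost under 10 of 17 alternatives (adjusted p up to 0.196). HSPD1, which forms the mitochondrial folding barrel, fell in shGLO1#1 from 685, 728 and 698 CPM to 581, 572 and 571 CPM (log2 fold change -0.29, adjusted p = 0.00171, edgeR) and showed a log2 fold change of -0.02 in shGLO1#2 (95% interval -0.16 to 0.11). HSPE1, the lid of that barrel, was at 22.7, 23.9 and 22.0 CPM in shNT, against 22.3, 20.3 and 21.4 CPM in shGLO1#1 and 26.9, 26.1 and 25.3 CPM in shGLO1#2. Its log2 fold change in shGLO1#2 was 0.19 (adjusted p = 0.0673, edgeR), and 0.19 with an adjusted p of 0.0469 with the replicate block (edgeR). HSPE1 overlaps the readthrough gene HSPE1-MOB4 on the same strand, which can leave its reads uncounted as ambiguous, so its level is uncertain.

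**Figure D3:**
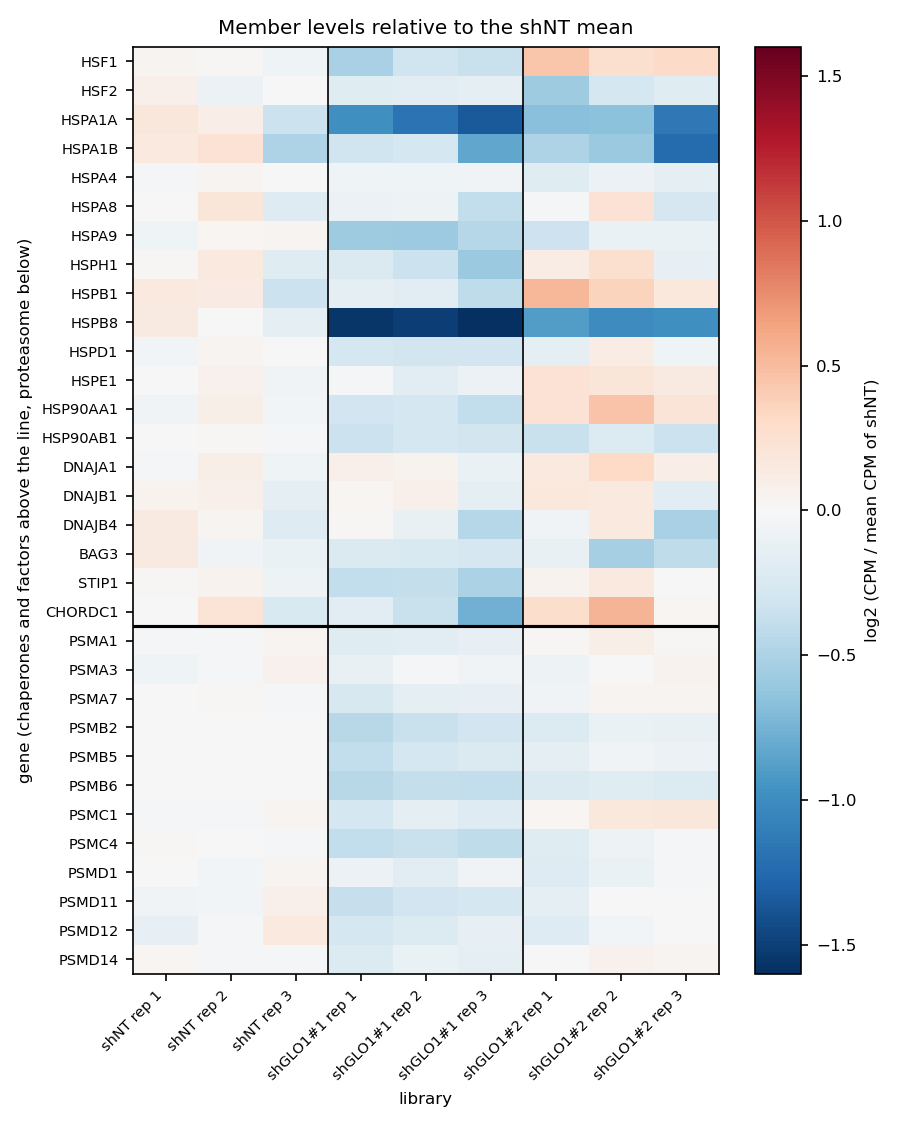
Log2 ratio of CPM to the mean CPM of shNT (colour, red higher, blue lower) for the 32 genes tested (rows, chaperones above the line and proteasome genes below) in the 9 libraries (columns). HSPA1A and HSPB8 are deep blue in the shGLO1#1 libraries, HSF1, HSPB1 and HSP90AA1 are red in shGLO1#2, and the proteasome rows are pale blue in shGLO1#1.

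In the 20S core, 5 of 6 member genes fell in shGLO1#1 and 2 of 6 in shGLO1#2. Of all genes tested 23.1 and 19.8% fell, and of those between 89.1 and 279 CPM 38.5 and 26.6%. PSMB6, the subunit with caspase-like activity, was at 138, 137 and 139 CPM in shNT, against 101, 106 and 105 CPM in shGLO1#1 and 117, 120 and 119 CPM in shGLO1#2. The 3 conditions did not overlap and replicates differed by little. PSMB6 fell by 24.7% in shGLO1#1 (log2 fold change -0.41, SE 0.05, adjusted p = 1.21e-05, edgeR) and by 13.9% in shGLO1#2 (log2 fold change -0.22, SE 0.05, adjusted p = 0.00243, edgeR), and both calls held under all 17 alternatives run.

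PSMB5, the subunit with chymotrypsin-like activity and the target of bortezomib, was at 170, 170 and 171 CPM in shNT, against 129, 140 and 145 CPM in shGLO1#1 and 154, 163 and 160 CPM in shGLO1#2. It fell by 18.9% in shGLO1#1 (log2 fold change -0.30, adjusted p = 0.000432, edgeR). In shGLO1#2 it was at -0.10 (95% interval -0.21 to 0.02). PSMB2, a beta subunit without catalytic activity, fell by 22.5% in shGLO1#1 (log2 fold change -0.37, adjusted p = 7.04e-05, edgeR) and fell by 9.69% in shGLO1#2 (log2 fold change -0.15, adjusted p = 0.0383, edgeR), the latter lost under 12 of 17 alternatives (adjusted p up to 0.154).

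The alpha subunits form the gate of the barrel. PSMA1 and PSMA7 fell in shGLO1#1 by 0.17 and 0.18 on the log2 scale (adjusted p = 0.0133 and 0.0126, edgeR), and both calls ended without shGLO1#1 replicate 1, that of PSMA1 also without shNT replicate 3. PSMA3 was at -0.07 in shGLO1#1 (95% interval -0.19 to 0.05) and overlaps an antisense gene. In shGLO1#2 the 3 alpha genes had log2 fold changes from -0.003 to 0.049, none past the threshold.

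In the 19S particle, 5 of 6 member genes fell in shGLO1#1 and 0 of 6 in shGLO1#2. Of all genes tested 23.1 and 19.8% fell, and of those between 89.1 and 279 CPM 38.5 and 26.6%. PSMC4, an ATPase of the unfolding ring, was at 134, 132 and 131 CPM in shNT, against 101, 103 and 100 CPM in shGLO1#1 and 115, 125 and 131 CPM in shGLO1#2. It fell by 23.5% in shGLO1#1 (log2 fold change -0.39, adjusted p = 7.14e-05, edgeR), and the shGLO1#2 libraries reached up to just below the shNT range. PSMC1, another ATPase of the ring, fell in shGLO1#1 by 0.21 (adjusted p = 0.00689, edgeR). In shGLO1#2 it was at 216, 236 and 239 CPM against 208, 208 and 217 CPM in shNT, a log2 fold change of 0.13 (adjusted p = 0.0829, edgeR), and 0.13 with an adjusted p of 0.0278 with the replicate block (edgeR). PSMC1 overlaps NRDE2 on the opposite strand.

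PSMD11 and PSMD12, lid subunits, fell in shGLO1#1 by 0.32 and 0.21 (adjusted p = 0.000583 and 0.0354, edgeR). PSMD14, the deubiquitinase of the lid, fell by 0.15 (adjusted p = 0.0247, edgeR). The calls of PSMD12 and PSMD14 were lost under 6 and 5 of 17 alternatives. PSMD1, a scaffold of the base, showed a log2 fold change of -0.11 in shGLO1#1 (95% interval -0.23 to 0.02) and -0.12 in shGLO1#2 (95% interval -0.24 to 0.01). Without shGLO1#1 replicate 1 the number of proteasome members lower in shGLO1#1 was 6 rather than 10; PSMA1, PSMA7, PSMD12 and PSMD14 were then at -0.15, -0.14, -0.18 and -0.12. Lower calls over all genes fell from 3166 to 2624 without that library, and to 2627 without shGLO1#1 replicate 2.

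The 21 further subunits of the constitutive proteasome gave 0 higher and 14 lower in shGLO1#1, against 2 higher and 7 lower in shGLO1#2, with median log2 fold changes of -0.22 and -0.05 (all genes tested: 22.6% higher and 23.1% lower in shGLO1#1, 18.3% higher and 19.8% lower in shGLO1#2; genes of like abundance: 38.5 and 26.6% lower). PSMD7, a lid subunit, fell the most in shGLO1#1, from 167, 160 and 162 CPM to 93.1, 95.7 and 94.6 CPM (log2 fold change -0.79, adjusted p = 4.84e-08, edgeR), and was at 173, 176 and 176 CPM in shGLO1#2 (log2 fold change 0.10, adjusted p = 0.102, edgeR). PSMD4, a ubiquitin receptor of the 19S particle, fell in shGLO1#1 (-0.22, adjusted p = 0.0026, edgeR) and rose in shGLO1#2 (0.49, adjusted p = 5.09e-06, edgeR). The subunit genes therefore did not keep a fixed ratio to each other in either clone. SHFM1 and PSMB1 fell in shGLO1#2 by 0.49 and 0.43 (adjusted p = 1.69e-05 and 4.93e-05, edgeR).

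The immunoproteasome replaces the catalytic subunits by PSMB8, PSMB9 and PSMB10, which favour peptides for antigen presentation, and its genes moved apart from the constitutive ones in shGLO1#1. Of 5 genes (the 3 subunits and the PA28 activator genes PSME1 and PSME2), 3 were higher and 0 lower in shGLO1#1. In shGLO1#2, 1 was higher and 4 lower. For comparison, 22.6% of the whole set of genes rose in shGLO1#1 and 23.1% fell. The shares for shGLO1#2 were 18.3% and 19.8%. A list of 5 genes allows only a rough reading against these shares. PSMB9 was at 10.8, 10.7 and 9.91 CPM in shNT, against 16.1, 17.8 and 16.9 CPM in shGLO1#1 and 9.32, 7.26 and 6.33 CPM in shGLO1#2. The 3 conditions did not overlap, and the order of the clones was the reverse of that of its constitutive counterpart PSMB6. PSMB9 rose by 0.70 on the log2 scale in shGLO1#1 (adjusted p = 0.000487, edgeR) and fell by 0.45 in shGLO1#2 (adjusted p = 0.0173, edgeR).

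PSMB8, the counterpart of PSMB5, likewise rose in shGLO1#1 (0.27, adjusted p = 0.00702, edgeR) and fell in shGLO1#2 (-0.32, adjusted p = 0.00286, edgeR). Counts of PSMB8 per count of PSMB5 were 0.347, 0.338 and 0.323 in shNT, 0.541, 0.488 and 0.470 in shGLO1#1 and 0.317, 0.249 and 0.299 in shGLO1#2. Both subunits had moved, in opposite directions, in shGLO1#1. PSMB10 rose in shGLO1#2 (0.33, adjusted p = 0.0188, edgeR) and was at 0.24 in shGLO1#1 (adjusted p = 0.0701, edgeR). Its constitutive counterpart PSMB7, named here after its values were seen, fell in shGLO1#1 (-0.36, adjusted p = 6.71e-05, edgeR).

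**Figure D4:**
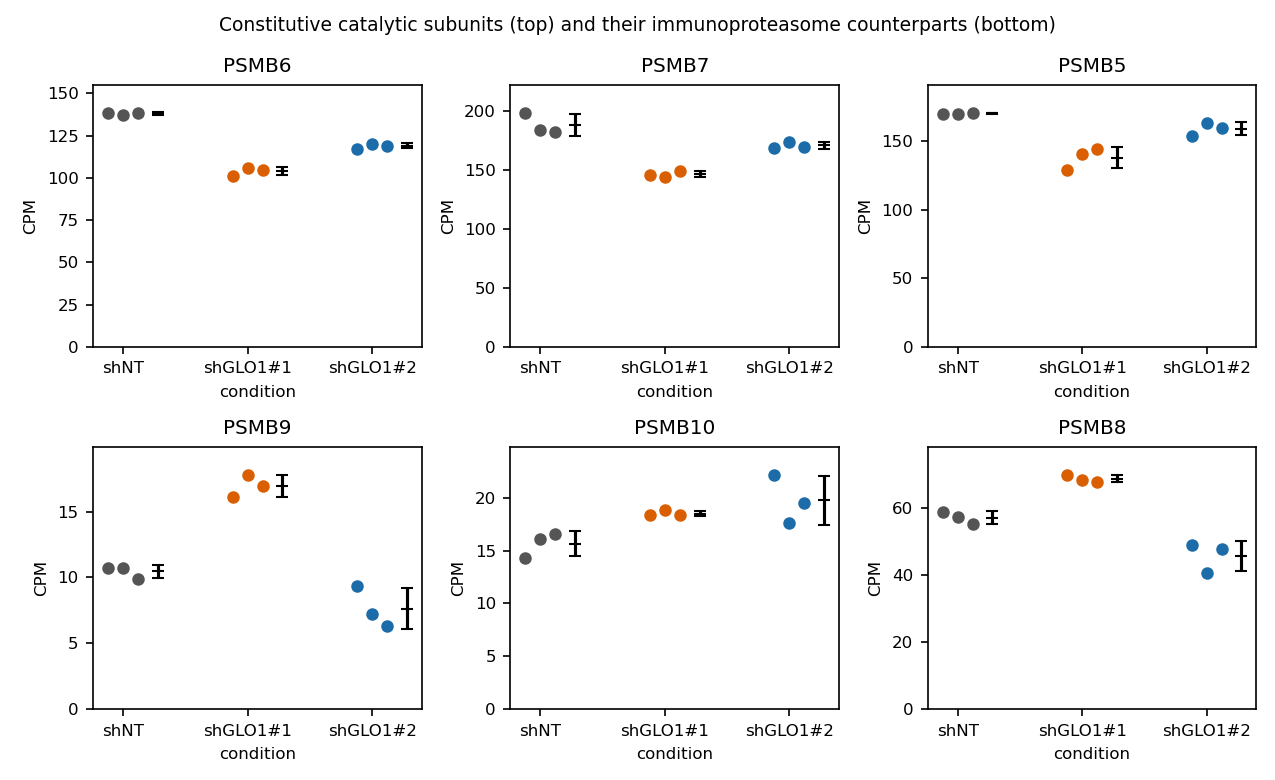
CPM by condition of the constitutive catalytic subunits PSMB6, PSMB7 and PSMB5 (top) and of PSMB9, PSMB10 and PSMB8, which take their places in the immunoproteasome (bottom); points are libraries, bars the mean and SD of 3. The top genes are lowest in shGLO1#1 (PSMB6 between 101 and 106 CPM), where PSMB9 and PSMB8 are highest.

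Other parts of the quality control network were compared by the same fit, and their counts read against the same shares, 22.6% higher and 23.1% lower of all genes tested in shGLO1#1 and 18.3 and 19.8% in shGLO1#2. Of 12 further heat shock and stress-related genes tested, not all of them heat-inducible, 0 rose and 5 fell in shGLO1#1, against 3 higher and 2 lower in shGLO1#2. HSPA6, an HSP70 gene that is nearly silent without stress, had 10, 7 and 8 counts in shNT, against 17, 9 and 4 in shGLO1#1 and 54, 34 and 29 in shGLO1#2. It rose in shGLO1#2 (log2 fold change 2.15, SE 0.42, adjusted p = 0.00103, edgeR) but stayed at 3.29 CPM or less. HSPA2 rose there too (1.37, adjusted p = 0.000697, edgeR), and HSPA1L and ZFAND2A fell (-1.24 and -0.60, adjusted p = 0.00163 and 0.00688, edgeR). HSPA2 and HSPA1L also rest on few counts, at most 62 and 31 in any library. Within shGLO1#2, HSPA6 was thus higher while HSPA1A and HSPA1B were lower.

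In shGLO1#1, 23.1% of all genes tested and 38.5% of those between 89.1 and 279 CPM were lower. Many of the genes in the following lists lie outside that range. Lower calls were also made in shGLO1#1 in the TRiC chaperonin and prefoldin (2 higher and 8 lower of 14, with CCT5 at -0.42 and PFDN4 at -0.56), in mitochondrial chaperones and proteases (1 higher and 7 lower of 11, with LONP1 at -0.45 and SPG7 at -0.46) and in ubiquitin receptors and VCP (2 higher and 8 lower of 13). The corresponding counts in shGLO1#2 were 1 higher and 1 lower, 0 higher and 1 lower (AFG3L2 at -0.67), and 1 higher and 3 lower. The genes that rose in shGLO1#1 included UBQLN2, which carries ubiquitinated clients to the proteasome (24.7, 25.2 and 23.7 CPM in shNT and 47.4, 54.6 and 51.5 CPM in shGLO1#1; log2 fold change 1.06, adjusted p = 1.36e-07, edgeR), HDAC6, which takes aggregates to the aggresome (0.94, adjusted p = 1.40e-07, edgeR), and the mitochondrial protease gene HTRA2 (0.64, adjusted p = 2.46e-05, edgeR). UBQLN2 also rose in shGLO1#2 (0.35, adjusted p = 0.00211, edgeR).

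Of 21 other cytosolic chaperones and cochaperones, 0 were higher and 8 lower in shGLO1#1 (HSPBP1 at -0.49 and CDC37 at -0.41). In shGLO1#2, 1 was higher and 5 lower (BAG1 at -0.47 and FKBP5 at -0.40). Many of these genes, SUGT1 and BAG4 among them, lie below the range from 89.1 to 279 CPM. The shares of that range are therefore no match for this list. Of 13 endoplasmic reticulum chaperones, 3 were higher and 5 lower in shGLO1#1, against 1 higher and 3 lower in shGLO1#2. Of 13 proteasome assembly factors and regulators, 2 were higher and 5 lower in shGLO1#1, against 0 higher and 4 lower in shGLO1#2. The activator gene PSME4 rose in shGLO1#1 (0.54, adjusted p = 1.32e-06, edgeR), the assembly gene PSMG4 fell in shGLO1#2 (-0.93, adjusted p = 7.43e-05, edgeR), and PSME3 fell in both clones (-0.42 and -0.39, adjusted p = 0.000172 and 0.000412, edgeR).

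The chaperone genes also varied with the replicate number, whatever the condition. In all 3 conditions the library with replicate number 3 was the lowest for 10 of 20 chaperone genes (50%), 0 of 12 proteasome genes and 11.7% of all genes tested. Proteasome genes varied with the number in another way, with 4 of 12 (PSMA3, PSMB5, PSMD11 and PSMD12, 33.3%) lowest in replicate 1 of every condition, against 8.23% of all genes, and 2 of 12 (PSMD1 and PSMD12) highest in replicate 3, against 11.6%. The 10 chaperone genes were HSPA1A, HSPA1B, HSPA8, HSPH1, HSPB1, DNAJA1, DNAJB1, DNAJB4, STIP1 and CHORDC1. HSPA1B in the replicate 3 library was 61.8% of the mean of replicates 1 and 2 in shNT, 69.5% in shGLO1#1 and 61.9% in shGLO1#2, and HSPA8 was 81.3, 80.8 and 76.8%. PSMB6 was 101, 101 and 100%. This spread between replicates was as large as many of the differences between conditions. It was noticed in these data and is a description without a test, and the sources do not say what a replicate number stands for.

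**Figure D5:**
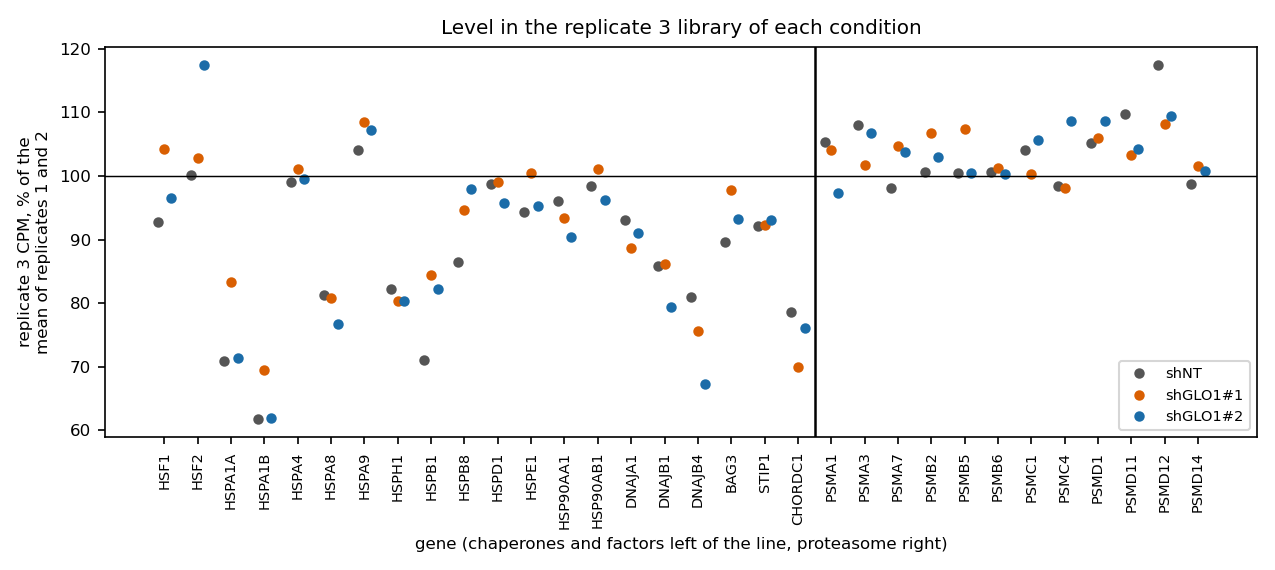
CPM of each gene in the replicate 3 library as a percentage of the mean of replicates 1 and 2 of the same condition (y axis), for shNT (grey), shGLO1#1 (orange) and shGLO1#2 (blue). Inducible chaperone genes such as HSPA1B and CHORDC1 lie well below 100% in every condition, whereas the proteasome genes right of the line lie between 97.4 and 117%.

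The promoters of the members were searched on both strands over the 250 bases before each RefSeq start (GRCh38.p14; 19 of 21 chaperone and 10 of 12 proteasome genes matched by symbol). A gene counted if any of its starts matched. The heat shock element of 3 units, GAANNTTCNNGAA or its reverse complement, was found for 5 of 19 chaperone genes, 0 of 10 proteasome genes and 0.557% of 27305 genes. The shorter GAANNTTC, which every such element contains, was found for 11 of 19 chaperone genes, 0 of 10 proteasome genes and 7.05% of all genes. The 11 were CHORDC1, DNAJA1, DNAJB1, HSP90AA1, HSP90AB1, HSPA1A, HSPA1B, HSPA8, HSPB1, HSPB8 and HSPD1. TGACNNNGC, the core of the antioxidant response element, was found for 1 of 19 and 1 of 10, against 13.2% of all genes, and CCAAT for 7 of 19 and 3 of 10, against 37% of all genes.

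The elements of 3 units are shown with a few flanking bases (capitals mark the element; strand is that of the gene), because no proteasome promoter searched held one. They lie at chr11:90223083-90223112 (minus) for CHORDC1, chr14:102087111-102087140 (minus) for HSP90AA1, chr6:44247770-44247799 and chr6:44247823-44247852 (plus) for HSP90AB1, chr11:123062170-123062199 and chr11:123062345-123062374 (minus) for HSPA8 and chr2:197500061-197500090 (minus) for HSPD1.
CHORDC1: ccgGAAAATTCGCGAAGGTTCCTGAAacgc
HSP90AA1: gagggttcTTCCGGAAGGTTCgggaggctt
HSP90AB1, distal: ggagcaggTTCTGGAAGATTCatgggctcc
HSP90AB1, proximal: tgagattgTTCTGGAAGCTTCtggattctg
HSPA8, proximal: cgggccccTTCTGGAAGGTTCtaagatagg
HSPA8, distal: gcgagcttGAAAGTTCCAGAAcgctgcggt
HSPD1: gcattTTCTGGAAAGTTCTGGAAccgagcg
The HSP90AB1 elements lie before its most downstream start alone. Other starts of HSP90AB1, HSP90AA1 and HSPD1 held no such element in their windows. A match of letters does not show that a factor binds there.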

How the data were processed

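The data were 9 RNA-seq libraries of MDA-MB-231 clones (shNT, shGLO1#1 and shGLO1#2, 3 each). Per the submitters' processing notes, the authors used bcl2fastq 2.17 for base calls, TopHat2 2.1.1 for alignment (hg19) and HTSeq for counting. The deposited values are raw counts per gene symbol. The counter's annotation and strand setting were not stated. The 5 rows that name no gene (12.8 to 15.2% of alignments without a feature, 1.50 to 1.95% ambiguous, 5.76 to 6.15% not unique) were left out. No 2 libraries of a condition were copies of each other.

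Counts were fitted in edgeR 4.0.16 (R 4.3.3) with TMM scaling, filterByExpr (minimum count 10, minimum total 15), all 9 libraries and the quasi-likelihood test, in 3 comparisons. P-values were adjusted by the Benjamini-Hochberg method over 13704 genes and called under 0.05. The test was run on simulated counts with known changes first. SE is the absolute log2 fold change over the square root of F. DESeq2 1.42.0 was an alternative. At this depth CRYAB was below the floor of 3 counts (0.202 CPM in shNT replicate 1).

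Deviations of libraries with the same number from their condition means correlated at 0.21, 0.19 and 0.31 between shGLO1#2 and shNT. They correlated at 0.20, 0.069 and 0.34 between shGLO1#2 and shGLO1#1, and at -0.034, 0.056 and 0.25 between shGLO1#1 and shNT. These values overlap and do not show which conditions a number pairs, so the block was kept as an alternative only. The members and gene lists were chosen with earlier results of these data known. All members are named, and from each other list at most 4 genes with an adjusted p under 0.05 in either clone by the largest absolute log2 fold change. Some genes, such as SUGT1, BAG4 and PSMB7, are named outside this rule. Promoters are from RefSeq, and transcript lengths from GENCODE version 29.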

Additional observations from a re-analysis of the deposited data

Results flagged for a closer look

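The 2 GLO1-depleted clones differed in 20 member genes in the comparison of shGLO1#2 with shGLO1#1, by edgeR's quasi-likelihood test across all genes, and shRNA and clone cannot be told apart. For chaperone genes the log2 fold changes between the clones were 0.73 for HSF1, 0.72 for CHORDC1, 0.63 for HSP90AA1, 0.60 for HSPB1 and HSPB8, 0.50 for STIP1, 0.47 for HSPH1, 0.36 for HSPA9, 0.29 for HSPE1, 0.27 for HSPD1 and 0.19 for DNAJA1. For proteasome genes they were 0.34 for PSMC1, 0.29 for PSMC4, 0.27 for PSMD11, 0.22 for PSMA1 and PSMB2, 0.20 for PSMB5 and 0.19 for PSMA7, PSMB6 and PSMD14. All 20 were higher in shGLO1#2. In that comparison 22.8% of all genes tested were higher and 23.7% lower. Between 89.1 and 279 CPM, 33.3% were higher and 23.1% lower. The adjusted p was lowest for HSF1 (1.84e-06) and highest for DNAJA1 (0.0394).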

How the results depend on the processing

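Under 17 other settings, 1 of them chosen after seeing the data (the 6 libraries with replicate numbers 1 and 2), no member's call reversed. The chaperone and proteasome counts higher in shGLO1#1 stayed at 0. Proteasome genes lower in shGLO1#2 numbered 1 with RLE scaling, upper-quartile scaling, no filter, the 6 libraries of the comparison alone, or replicates 1 and 2 alone, and 1 was higher with upper-quartile scaling or the replicate block. With replicates 1 and 2 alone, 6 proteasome genes were lower in shGLO1#1. With the replicate block or replicates 1 and 2 alone, 1 chaperone gene, HSPA1B, was lower in shGLO1#2 than in shGLO1#1 (-0.29 with the block, adjusted p = 0.000496, edgeR). The causes were not tested.

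Without each library in turn, chaperone genes lower in shGLO1#1 numbered 8 to 13 and proteasome genes 6 to 10. In shGLO1#2 the chaperone genes higher numbered 2 to 5 (2 without shNT replicate 3 or shGLO1#2 replicate 2) and lower 5 to 8 (5 without shNT replicate 2), and the proteasome genes higher 0 to 1 and lower 1 to 2. Between the clones, 10 to 13 chaperone and 9 proteasome genes were higher in shGLO1#2, and 0 to 1 chaperone genes lower.

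Deviations of libraries with the same number correlated at 0.19 to 0.31 between shGLO1#2 and shNT. In the other pairs of conditions r ran from -0.034 to 0.34, which overlaps that range. The overlap does not show which conditions a number pairs. Replicate 3 was the lowest in every condition for 11.7% of all genes tested and the highest for 11.6%, a shared pattern that was not tested. The block raised the chaperone genes lower in shGLO1#1 than in shNT to 14. Over all genes it raised the lower calls there from 3166 to 3761. CRYAB, HSPA6, HSPA2 and HSPA1L rest on few counts.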
